A study of Mus musculus with 16 samples.

Results

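The replicative polymerase and Okazaki fragment genes are 10 genes chosen by name for their function: Pola1, Pola2, Prim1, Prim2, Pold1, Pole, Pcna, Rfc1, Fen1 and Lig1. All 10 were found in the RefSeq gene table, which holds 21887 protein-coding genes. For each gene, binding of the transcription factor E2f4 was read from the called summits within 1000 bp of the gene start, and the histone marks H3K4me2 and H3K27ac from the length their called regions covered within 5000 bp of it. The assay was ChIP-seq of mouse liver taken 40 h after partial hepatectomy, the removal of most of the organ, which drives the remaining hepatocytes into the cell cycle. Per the labels, the chromatin was from hepatocytes obtained out of frozen, fixed tissue. All mice were 90 days old, of a mixed C57/B6 and 129 strain, and carried floxed Arid1a on both alleles (Arid1a Fl/Fl). The WT group had no Cre, and the KO group also carried Alb-cre, a Cre driven by the albumin promoter. That promoter is active in hepatocytes, and liver cells in which the Cre was never active keep Arid1a, which encodes a subunit of the SWI/SNF remodelling complex. Which cells lost Arid1a was not measured here. For E2f4 there were 2 libraries of each genotype, but for either mark only 1, which leaves the histone differences without replicates. Whether the E2f4 replicates are separate animals is not stated in the labels, and their spread may be technical.

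DNA synthesis at the replication fork starts with the polymerase alpha and primase complex, which lays down a short RNA and DNA primer. Polymerase epsilon then extends the leading strand and polymerase delta the lagging strand, both held to DNA by the ring-shaped clamp PCNA, which the RFC complex loads. The lagging strand is made as Okazaki fragments, whose displaced primers are cut by the flap endonuclease FEN1 and whose ends are sealed by DNA ligase I. Many of these genes are textbook targets of E2F factors, and E2f4 is the member of the family best known for binding cell cycle promoters together with the pocket proteins related to RB. Of the histone marks, H3K4me2 is found at promoters and enhancers, and H3K27ac at those in an active state.

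The values come from the authors' peak lists. These hold no read counts, the depth behind them is unknown, and a peak missing from a list was only not called there. For E2f4, 1791 and 1058 peaks were called in the WT libraries but 287 and 683 in the KO libraries. A summit at the start of a protein-coding gene was called for 1400 and 997 genes in the WT libraries, a mean of 1198.5 ± 285 (SD, n = 2). In the KO libraries it was called for 242 and 687 genes, a mean of 464.5 ± 315 (SD, n = 2). A two-sided exact permutation test of these counts had p = 0.333, and with 6 possible assignments no smaller p can be reached. Every KO count below therefore has to be read against lists that were shorter throughout. All 10 hepatocyte marker genes carried both marks in both genotypes, with a summed covered length of 81427 bp in WT and 73531 bp in KO for H3K4me2 and of 81915 and 82505 bp for H3K27ac. Markers of other liver cells differed between the libraries. H3K4me2 over the lymphocyte markers summed to 16536 bp in WT and 2255 bp in KO, with Cd8a at 0 in both. It summed to 22731 and 33086 bp over the 7 endothelial markers, to 14692 and 18131 bp over the 6 Kupffer cell and macrophage markers, to 7511 and 16605 bp over the 5 stellate cell and fibroblast markers, and to 6007 and 5056 bp over the 5 cholangiocyte markers, with Krt19 and Krt7 at 0. H3K27ac over the same lists summed to 2740 and 4227 bp, 36402 and 28527 bp, 22434 and 19762 bp, 14222 and 5775 bp, and 1864 and 0 bp. Few genes carried some of these sums. Sox9 held all of the cholangiocyte H3K27ac, and Ptprc held 2591 and 4019 bp of the lymphocyte H3K27ac. Of the macrophage markers, H3K4me2 went from 0 to 2256 bp at Timd4 and from 0 to 2092 bp at Marco. It rose less at Csf1r and Cd68 and was shorter in KO at Adgre1 and Clec4f. The part of these cells in the differences below was not tested, and a mark present in more cells cannot be told apart from a longer mark in the same cells.

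E2f4 was called in both WT libraries at the start of 5 of the 10 genes (Pola2, Pold1, Pole, Pcna and Fen1), against 3.72% of all protein-coding genes. Pola1 and Prim2 had a summit in exactly 1 WT library, a class that held 3.51% of all genes. Prim1, Lig1 and Rfc1 had none in any library, as did 92.6% of all genes. At Lig1 and Rfc1 the outer end of the gene in the annotation was not the end that E2f4 lay at. Both have RefSeq starts further inside, and measured from any RefSeq start Lig1 joined the genes called in both WT libraries (6 of 10, against 3.83% of all genes) and Rfc1 those called in 1. Prim1 alone then had no summit in any library, as did 92.3% of all genes. This second count was added after the positions of the peaks had been seen. By library, the outer starts of 6 and 6 members were called in WT (6.4% and 4.56% of all genes) and of 1 and 2 members in KO (1.11% and 3.14%).

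Of the 4 polymerase alpha and primase genes, Pola2 alone had an E2f4 call in both WT libraries, and it was a weak one. Pola1, the catalytic subunit of polymerase alpha (chromosome X, 93304766 to 93632387, minus strand), was called in WT replicate 2 only. Its peak (93632069 to 93632297) had a fold enrichment of 11.1, the authors' value for the peak over its background, and ranked 510 of 1058 by −log10 q-value. The summit lay 231 bp into the gene from the outer start and at -1 bp from the RefSeq start. Pola2, the regulatory subunit (chromosome 19, 5940543 to 5964238, minus strand), was called in both WT libraries, with folds of 6.48 and 3.99 and ranks of 794 of 1791 and 1020 of 1058. In the shorter list it thus stood near the end. Prim1, the small subunit of primase that makes the RNA primer (chromosome 10, 128015215 to 128030030, plus strand), had no E2f4 peak in the gene or within 5000 bp of it in any library. Prim2, the large primase subunit (chromosome 1, 33453808 to 33669808), was called in WT replicate 1 only, with a fold of 7.16 and rank 675, 60 bp into the gene. The non-coding gene 1700001G17Rik starts 16 bp from it, and the 2 genes cannot be told apart.

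The catalytic subunits of both main replicative polymerases were called in both WT libraries, Pole more strongly than Pold1. Pole, of polymerase epsilon (chromosome 5, 110286319 to 110337468), had peaks with folds of 15.8 and 14.1 and ranks of 327 and 376 in WT replicates 1 and 2. Their summits lay 39 and 35 bp into the gene, and neither KO library had a peak there. The start of Pxmp2, a peroxisomal membrane protein gene, lies 97 bp away and shares this peak. A second peak of WT replicate 1 in the body of Pole, 43128 bp from its start, had a fold of 4.15, ranked 1754 of 1791 and lay in no called region of either mark. Pold1, of polymerase delta (chromosome 7, 44532744 to 44548815, minus strand), had folds of 6.53 and 6.85 in WT and 7.21 in KO replicate 2, with ranks of 921, 778 and 539. The 3 summits lay 46, 45 and 60 bp into the gene, within 15 bp of each other. KO replicate 1 had no peak there.

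The clamp gene Pcna was the one member called in all 4 libraries, a class that held 1.06% of all genes. Pcna lies on chromosome 2 (132249286 to 132253180, minus strand). Its strongest peaks had folds of 11.9 and 8.75 in the WT libraries and of 8.18 and 11.6 in the KO libraries, and the −log10 q-values were 26.1, 13.7, 8.12 and 23.4. The WT and KO values overlapped. Ranks were 355 of 1791, 576 of 1058, 147 of 287 and 286 of 683. The summits did not lie at the start of Pcna: they were 496, 446, 513 and 502 bp inside the gene. A second, weaker peak of WT replicate 1 (fold 5.94, rank 1126) lay 10 bp from the start. Cds2, a phospholipid synthesis gene, starts 158 bp from Pcna and takes the same peaks, so that its ranks were identical. Of the other genes with a summit in all 4 libraries (232 genes in all), the one with the most similar ranks was Pkn3 on chromosome 2, a protein kinase gene (345, 517, 187 and 239, a summed rank difference of 156). Rfc1, the large subunit of the clamp loader (chromosome 5, 65261852 to 65338617, minus strand), was called in WT replicate 1 only. Its peak had a fold of 5.68 and ranked 1131 of 1791. It lay 2996 bp into the gene from the outer start and 18 bp into the gene from the RefSeq start.

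The genes that finish Okazaki fragments had the strongest E2f4 peaks of the 10 in both WT libraries. Lig1, DNA ligase I (chromosome 7, 13277175 to 13311426, plus strand), led, with folds of 17.5 and 18.3 and ranks of 227 and 242 in WT. KO replicate 2 had the same peak with a fold of 16.3 at rank 208, and KO replicate 1 had none. The 3 summits lay 1661, 1674 and 1679 bp into the gene from its outer start, and 10, 23 and 28 bp from a RefSeq start at 13278826. Zswim9 has a start 105 bp from a Lig1 start. Fen1, the flap endonuclease (chromosome 19, 10199132 to 10204393, minus strand), came second, with folds of 16.1 and 15.0 and ranks of 288 and 290 in WT, and was called in neither KO library. Its summits lay 500 and 463 bp into the gene from the outer start, and 28 and -9 bp from the inner of its 2 RefSeq starts. Tmem258 starts 191 bp away.

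In WT replicate 1 the order of the genes from the strongest peak was Lig1, Fen1, Pole, Pcna, Prim2, Pola2, Pold1 and Rfc1. In WT replicate 2 it was Lig1, Fen1, Pole, Pola1, Pcna, Pold1 and Pola2. The first 3 places were held by the same genes in both lists, and Pold1 and Pola2 changed places. The ranks of Lig1 (227 and 242), Fen1 (288 and 290) and Pole (327 and 376) did not overlap. As a percent of the list length, Lig1 (12.7 and 22.9%), Fen1 (16.1 and 27.4%) and Pole (18.3 and 35.5%) did overlap. Those percents also depend on the list lengths of 1791 and 1058 peaks, so their overlap is no measure of replicate spread. The order of the genes was not tested.

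**Figure D1:**
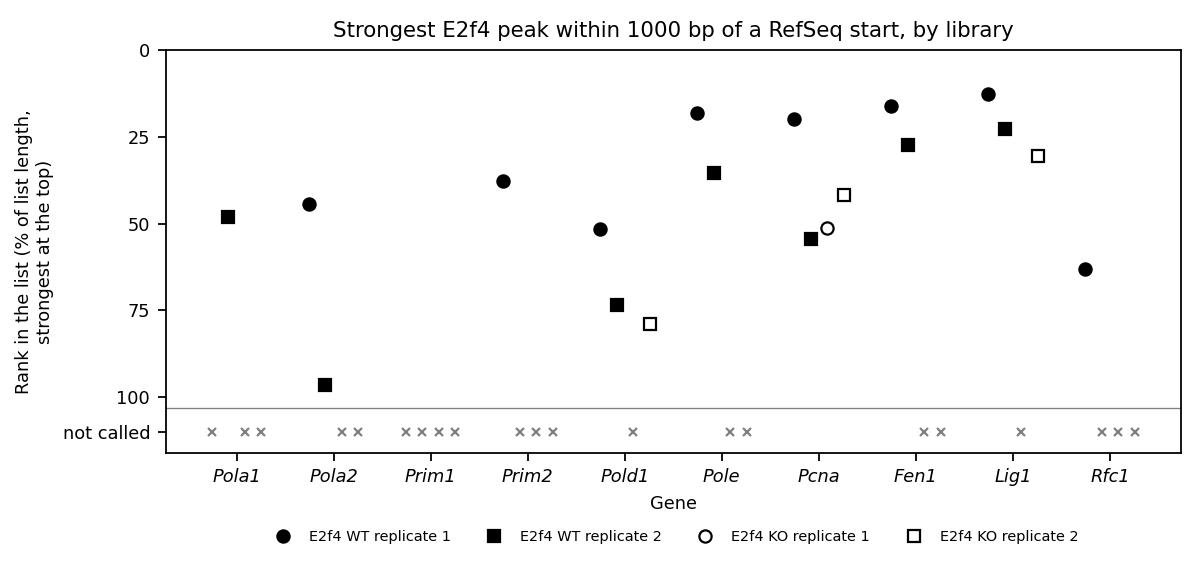
Rank of the strongest E2f4 peak within 1000 bp of any RefSeq start of each gene (outer start for Prim2 and Pole), as a percent of the length of each list on an inverted axis, with crosses for libraries where none was called. WT symbols are filled and KO symbols open; Pcna has all 4 symbols and Prim1 none, and percents from lists of different lengths show no change between libraries.

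RefSeq promoter windows (GRCm38.p6, the coordinates of mm10) run from 250 bp before to 50 bp after a start and were found for 8 of the 10 genes, 11 windows in all. Prim2 and Pole had no entry. The windows below belong to genes called in both WT libraries and are shown because the position of the summit can be set against the letters; the window of Prim1 is added, after its values were seen, as the gene with no peak. Capitals mark exact matches on either strand to an E2F word, TTTGGCGC or TTTCGCGC or TTCCCGCC, and all are printed 5′ to 3′ on the strand of the gene, so that a word on the opposite strand stands as its reverse complement.
Lig1, inner start, chr7:13278576-13278875, plus strand: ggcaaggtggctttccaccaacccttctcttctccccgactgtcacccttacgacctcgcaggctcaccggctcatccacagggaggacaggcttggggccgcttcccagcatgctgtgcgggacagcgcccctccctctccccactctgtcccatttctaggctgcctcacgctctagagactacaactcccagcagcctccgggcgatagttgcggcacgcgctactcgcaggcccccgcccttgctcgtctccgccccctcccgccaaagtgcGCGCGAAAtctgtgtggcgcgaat
Fen1, inner start, chr19:10203872-10204171, minus strand: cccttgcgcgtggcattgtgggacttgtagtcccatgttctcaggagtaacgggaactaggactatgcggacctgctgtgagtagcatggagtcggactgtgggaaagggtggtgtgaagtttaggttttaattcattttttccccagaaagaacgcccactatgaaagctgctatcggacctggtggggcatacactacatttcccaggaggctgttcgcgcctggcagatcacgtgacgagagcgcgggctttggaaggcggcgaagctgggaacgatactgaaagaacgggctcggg
Pcna, chr2:132253131-132253430, minus strand: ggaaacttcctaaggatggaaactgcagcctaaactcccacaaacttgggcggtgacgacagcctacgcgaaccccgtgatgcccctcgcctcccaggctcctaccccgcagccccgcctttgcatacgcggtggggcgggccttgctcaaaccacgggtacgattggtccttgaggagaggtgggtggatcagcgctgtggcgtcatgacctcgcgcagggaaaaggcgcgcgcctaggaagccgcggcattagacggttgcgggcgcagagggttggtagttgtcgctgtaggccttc
Pold1, chr7:44548766-44549065, minus strand: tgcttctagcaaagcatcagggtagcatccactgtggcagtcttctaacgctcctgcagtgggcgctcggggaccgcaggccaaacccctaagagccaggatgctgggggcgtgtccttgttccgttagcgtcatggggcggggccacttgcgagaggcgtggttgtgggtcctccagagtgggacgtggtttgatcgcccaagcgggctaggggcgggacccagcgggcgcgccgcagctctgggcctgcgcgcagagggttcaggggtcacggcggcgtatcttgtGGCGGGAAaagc
Pola2, chr19:5964157-5964456, minus strand: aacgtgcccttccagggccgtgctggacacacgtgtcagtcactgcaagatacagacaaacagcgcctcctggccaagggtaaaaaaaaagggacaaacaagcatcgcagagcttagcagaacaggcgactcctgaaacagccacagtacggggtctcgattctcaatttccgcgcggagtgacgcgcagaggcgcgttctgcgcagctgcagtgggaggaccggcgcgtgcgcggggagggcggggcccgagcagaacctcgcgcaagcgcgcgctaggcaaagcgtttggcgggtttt
Prim1, chr10:128014965-128015264, plus strand: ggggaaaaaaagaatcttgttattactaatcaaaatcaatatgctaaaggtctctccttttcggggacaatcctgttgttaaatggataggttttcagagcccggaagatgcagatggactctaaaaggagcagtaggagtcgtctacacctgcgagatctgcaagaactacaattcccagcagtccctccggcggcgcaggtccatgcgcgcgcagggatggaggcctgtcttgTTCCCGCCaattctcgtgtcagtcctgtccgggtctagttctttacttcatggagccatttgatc

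In Lig1 and Pold1 the E2f4 summits fell on or beside the capital letters. The Lig1 window held TTTCGCGC on the opposite strand, 26 bp after the start, and its middle lay 20, 6 and 2 bp from the summits of WT replicate 1, WT replicate 2 and KO replicate 2. The Pold1 window held TTCCCGCC on the opposite strand, 38 bp after the start, and 4, 4 and 18 bp from the same libraries' summits. Pola1 held TTTGGCGC, 134 bp from its single summit. Prim1 held TTCCCGCC 15 bp before its start, overlapping the NF-Y word CCAAT, and no E2f4 peak was called there. Fen1, Pcna, Pola2 and Rfc1 held none of the 3 words in these windows. Only exact matches to these words were searched, and other forms of an E2F site were not. Of the 4 peaks of Pcna inside the gene none lay in its window. Of the 21263 promoter windows of all protein-coding genes, 3.84% held at least 1 of the words, and of the 511 windows holding a summit of both WT libraries 28.0% did. The GC box GGGCGG, which can share letters with TTCCCGCC read on the opposite strand, was in 7 of the 11 member windows and in 46.2% of all windows. The word CCAAT was in 4 (38.2% of all windows), and the CHR word TTTGAA was in 1, that of the outer start of Fen1 (16% of all windows). Of the 511 windows holding a summit of both WT libraries, 75.5% held GGGCGG, 61.3% CCAAT and 35% TTTGAA.

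In the KO libraries, with their shorter lists, fewer of these genes had an E2f4 call. Both WT libraries had called 5 members, and of these 2 (Pold1 and Pcna) had a call in KO, against 72% of all genes of that class. From any RefSeq start it was 3 of 6 (Pold1, Pcna and Lig1), against 71.6%. Pola2, Pole and Fen1 were called in both WT but neither KO library, as 1.04% of all genes were. All but the Pcna call rest on KO replicate 2: without it the number was 1 of 5, and without KO replicate 1 it remained 2. These 2 numbers cannot be set against the 72%, which uses both KO libraries. KO replicate 1 was called at 1.11% of all genes and KO replicate 2 at 3.14%. Of the 814 genes called in both WT libraries, 232 were called in both KO libraries. Pcna was called in both.

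Over all genes called in both WT libraries, KO calls became rarer as the WT peaks became weaker, and the members were set against this. The 814 genes called in both WT libraries were ordered by mean WT rank and divided into 4 bands of near-equal size. In band 1, which held no member, 99.5% of genes had a KO summit. Fen1 was at place 298 and Pole at 353, both in band 2, where 90.7% of genes had a KO summit, and neither had one. Pcna was at place 468 in band 3 (68% of genes) and was called in both KO libraries. Pold1 at place 723 and Pola2 at 750 were in band 4 (29.9%), and of these Pold1 was called and Pola2 was not. Lig1, with no summit at its outer start, was not among the 814 genes, but it had the strongest WT peaks of the 10 and was called in KO replicate 2. With every list limited to its 287 strongest peaks, no outer start of a member was called in either WT library and that of Pcna was called in both KO libraries. Of all 21887 genes, such lists called only 314 and 313 in WT and 242 and 316 in KO, so few or no members were to be called in any of them. From any RefSeq start, Lig1 was then called in both WT libraries and in KO replicate 2, where the lists called 324 and 322 genes in WT and 249 and 326 in KO. Fen1, with WT ranks of 288 and 290, lay just outside that limit.

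All 10 genes carried both marks in both genotypes within 5000 bp of the start, and their promoters differed in layout. Every E2f4 summit within 1000 bp of a RefSeq start lay inside a called H3K4me2 region of both genotypes, and all but those of Lig1 lay inside H3K27ac in both. At Lig1 the WT H3K27ac region ended 1611 bp into the gene, short of the summits, and the KO region ran on to 2013 bp and covered them. At Pold1 the H3K4me2 region at the start lay on the side of the gene alone, from 41 to 1473 bp inside it in WT and from 37 to 1375 bp in KO, with the E2f4 summits at its edge. At Rfc1 neither mark covered the outer start in WT. Regions lay on both sides, the inner one (2278 to 4477 bp into the gene for H3K4me2 in WT) around the RefSeq start and the E2f4 summit.

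**Figure D2:**
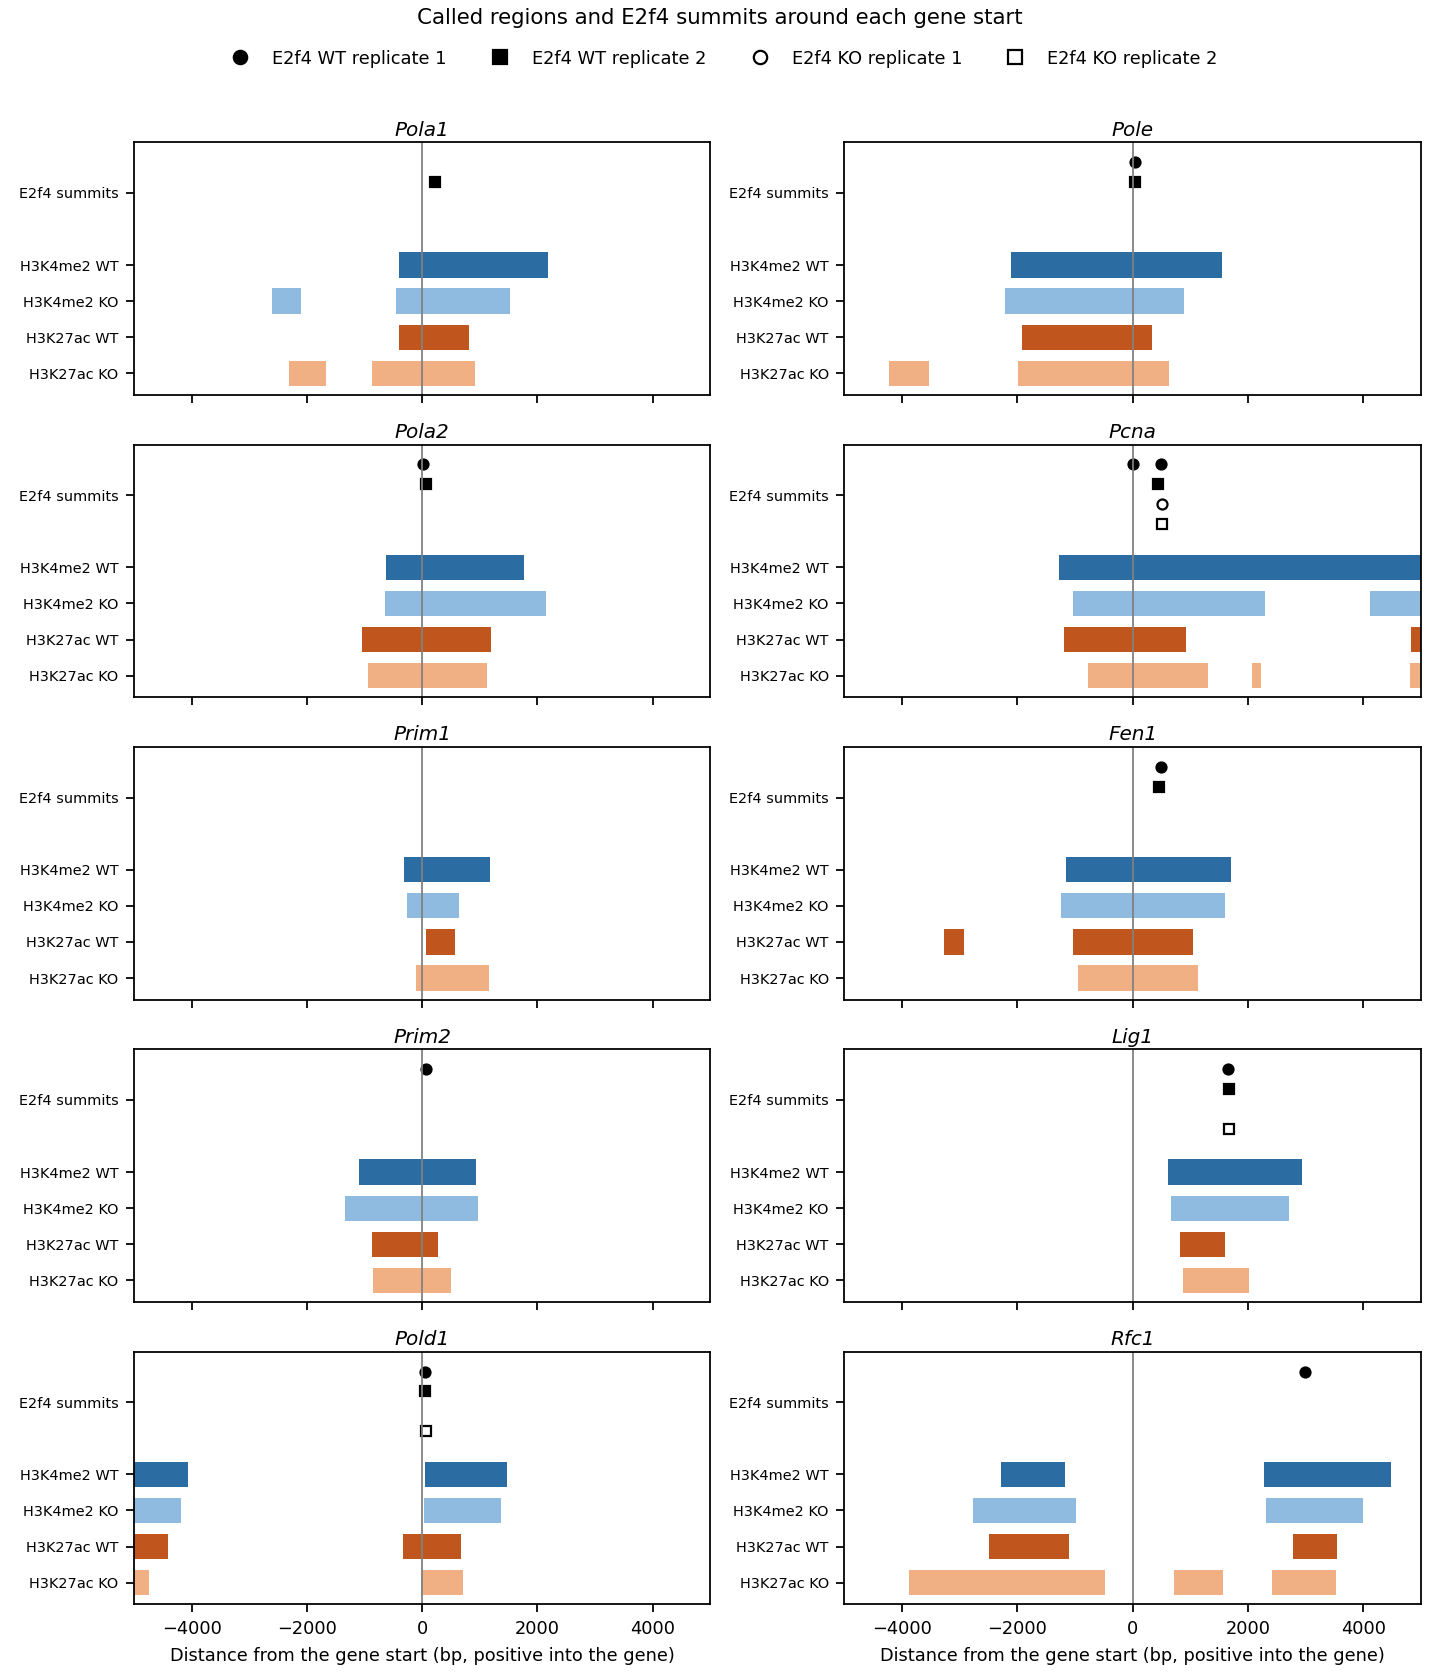
Called regions of H3K4me2 and H3K27ac in WT and KO (bars) and E2f4 summits of the 4 libraries (symbols) against the distance in bp from the outer start of each of the 10 genes, positive into the gene. Summits sit near the start in most genes, about 500 bp inside Pcna and Fen1, and further inside Lig1 and Rfc1; H3K27ac at Rfc1 covered 2163 bp in WT and 5350 bp in KO.

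H3K4me2 covered a similar length in both genotypes at most of the 10 genes, and a shorter one in KO at Pcna and Prim1. Pcna went from 6275 bp in WT to 4217 bp in KO, a 1.49-fold difference. In WT a single region of 8387 bp ran from before the start past the far end of this short gene, and in KO it was called as separate regions of 3329 and 3200 bp. Within 1000 bp of the start both libraries covered all 2001 bp, so the difference lay further from the start. The protein-coding gene Tmem230 has a start 4121 bp from that of Pcna, so the covered length cannot be assigned to Pcna alone. Prim1 went from 1487 to 903 bp (1.65-fold), and its KO region had the higher authors' fold (11.5 against 6.85). Counting differences of at least 25% of the shorter length, 2 of 10 were shorter in KO, against 12% of all marked genes, and 0 of 10 were longer, against 24.3%. Over all 16118 marked genes the median difference was 127 bp in favour of KO, and over the 10 genes it was -159.5 bp.

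Among the other 8 genes H3K4me2 differed by less than 25%. Pole went from 3657 to 3104 bp, Lig1 from 2325 to 2070 bp, Pold1 from 2378 to 2160 bp, Pola1 from 2590 to 2489 bp and Fen1 from 2866 to 2842 bp. Rfc1 went from 3316 to 3488 bp, Prim2 from 2024 to 2295 bp and Pola2 from 2379 to 2792 bp. In all, 7 genes were shorter and 3 longer in KO, while 60.3% of all marked genes were longer. This tally changed with the window: from any RefSeq start 8 were shorter and 2 longer, with Rfc1 at -308 bp, and within 1000 bp of the outer start 3 were shorter (Prim1, Pole and Lig1), 5 longer and 2 equal. With 1 library per genotype, these values compare those libraries and not the genotypes.

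By the same limit, H3K27ac covered a longer stretch in KO at 5 of the 10 genes (Rfc1, Prim1, Pola1, Pole and Lig1), against 25.8% of all marked genes, and a shorter one at 1 (Pold1), against 23.1%. Rfc1 went from 2163 to 5350 bp, 2.47-fold. In KO the region upstream of its outer start was 3403 bp wide against 1391 bp in WT, the region around the inner start was 1098 against 772 bp, and a further region of 849 bp was called between them. From the RefSeq start the covered length was 1695 bp in WT and 3500 bp in KO. Prim1 went from 499 to 1267 bp (2.54-fold), with −log10 q-values of 1.69 in WT and 4.82 in KO for its single region, while its H3K4me2 was shorter. Pola1 went from 1209 to 2418 bp (2.0-fold), of which 642 bp was a separate upstream region called in KO only.

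Pole went from 2260 to 3294 bp of H3K27ac (1.46-fold), including an upstream region of 681 bp with a −log10 q-value of 1.34, and Lig1 from 795 to 1139 bp (1.43-fold). Pxmp2 starts 97 bp from Pole and Zswim9 105 bp from a Lig1 start, so neither length can be assigned to the member alone. Pold1 went from 1604 to 978 bp, 1.64-fold shorter in KO, although the KO region at its start had the higher authors' fold (6.22 against 4.59). The region at the start was 1009 bp wide in WT and 722 bp in KO, and the rest of the difference lay in a separate region far upstream, from -4406 bp in WT and from -4745 bp in KO. The remaining genes differed by less than 25%: Prim2 from 1150 to 1362 bp, Pcna from 2297 to 2419 bp, Fen1 from 2444 to 2076 bp and Pola2 from 2246 to 2078 bp. The median difference over the 10 genes was 278 bp in favour of KO, and over all 13739 marked genes 38 bp. Several of these regions were weak. With regions of a −log10 q-value of at least 5 only, H3K27ac was left with 0 bp difference at Pola1 and Prim1, whose regions all fell out, the Pole difference fell to 353 bp, and Pold1 turned to 383 bp longer in KO since its WT region at the start (−log10 q-value 4.29) then dropped out, and Lig1 stayed at 344 bp longer. At Rfc1 both WT regions (−log10 q-values 3.69 and 3.53) dropped out too, so that the 4501 bp left in KO stood against none in WT. Within 1000 bp of its outer start Lig1 turned to -58 bp. Of the 5 genes with longer H3K27ac, Pole had E2f4 summits in both WT libraries at the outer start and Lig1 at an inner start. Pola1 and Rfc1 had a summit in 1 WT library, and Prim1 in none. Among the other genes, Pola2, Pold1, Pcna and Fen1 had summits in both WT libraries and Prim2 in 1. Whether E2f4 calls and H3K27ac length go together was not tested.

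**Figure D3:**
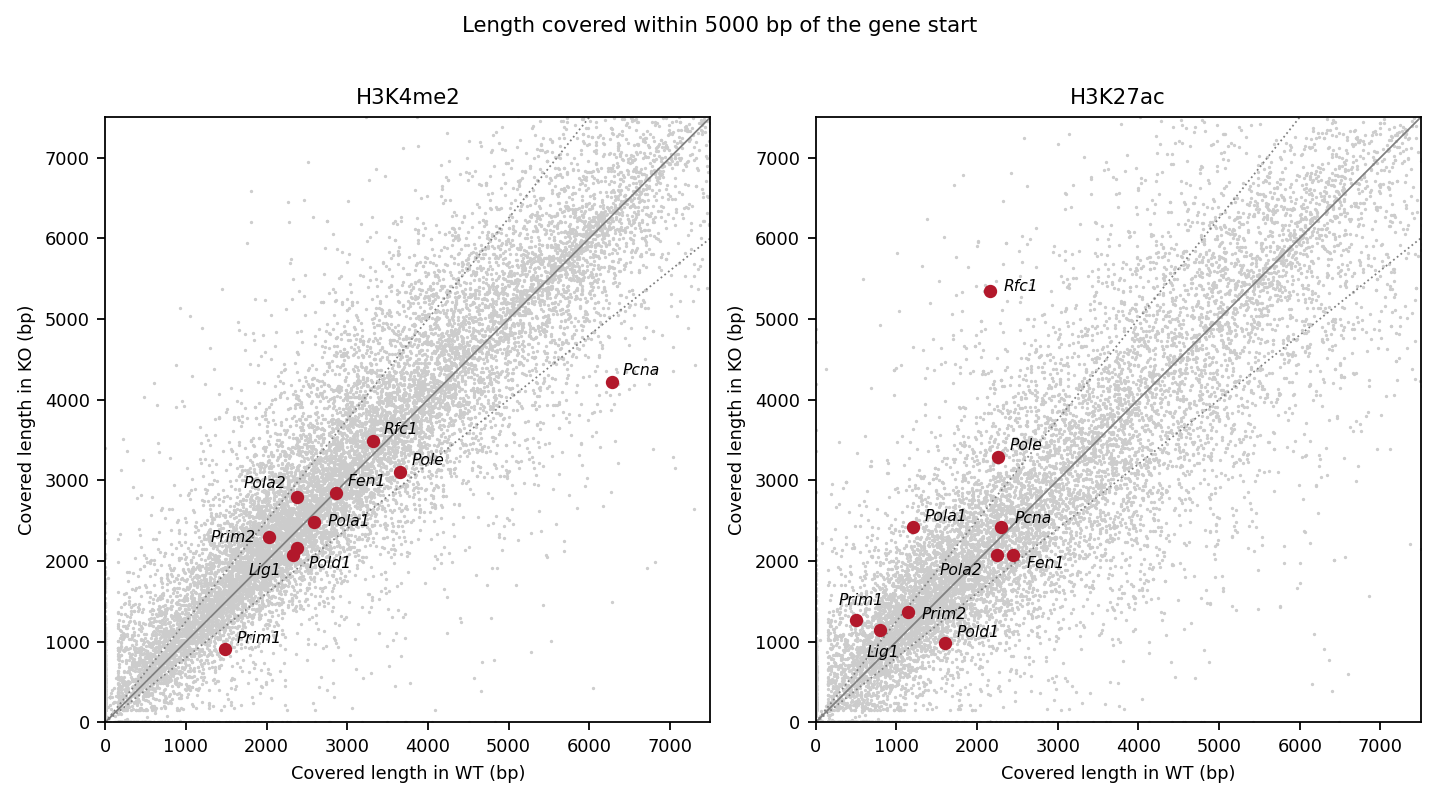
Length in bp covered within 5000 bp of the gene start in WT (horizontal) and KO (vertical), for H3K4me2 on the left and H3K27ac on the right, with 1 grey point per marked protein-coding gene and the 10 genes in red (genes above 7500 bp are not shown). The solid line is equality and the dotted lines are a 25% difference; Pcna and Prim1 lie below the lower dotted line for H3K4me2, and 5 genes lie above the upper one for H3K27ac.

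Other genes of the same pathway ranged from calls in all 4 libraries to none. Of 25 further genes for fork synthesis, 13 had a summit at the outer start in both WT libraries, against 3.72% of all genes. Another 5 had one in exactly 1 WT library (3.51%) and 7 in no library (92.6%). At least 1 KO library was called at 10 of the 25, against 3.17% of all genes. Of the 13 genes called in both WT libraries, 4 had no KO call, and over all genes of that class 72% had one. Among the other subunits of polymerases delta and epsilon, Pold3, Pole3 and Pole4 (3 of 6) were called in both WT libraries. Pole3, a histone-fold subunit, was called in all 4, at ranks 349 and 222 in WT and 143 and 388 in KO. Pole2 was called in WT replicate 1 and KO replicate 2, and Pold2 and Pold4 in none.

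The clamp loader genes were called most often, 6 of 8 in both WT libraries (Rfc2, Rfc3, Rfc4, Chtf18, Chtf8 and Atad5), and the remaining Rfc5 and Dscc1 in WT replicate 1. Atad5, which unloads PCNA, stood at ranks 81 and 83 for WT but at 111 and 107 for KO, in lists of other lengths. Rfc4 stood at 285 and 139 for WT and at 282 for KO replicate 2. Rfc3 and Chtf18 were also called in KO replicate 2, and Rfc2 and Chtf8 in neither KO library. For primer and flap removal it was 1 of 5, Rnaseh2b, a subunit of the enzyme that removes RNA from DNA (ranks 164, 104 and, in KO replicate 2, 76). Dna2, Rnaseh1 and Rnaseh2c had no summit. Rnaseh2a had none at its outer start, and from any RefSeq start it was called in WT replicate 1 only (rank 1255). Of the single-strand binding proteins Rpa2 was called in all 4 libraries, Rpa3 in WT replicate 1 and Rpa1 in none. The strongest peak of these 35 genes belonged to Pclaf, which encodes a PCNA-binding protein, at ranks 33 and 16 in WT and 5 and 24 in KO. Wdhd1, which ties polymerase alpha to the helicase, ranked 443 and 263 in WT and 255 in KO replicate 2, and Mcm10 was called in WT replicate 1 only.

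**Figure D4:**
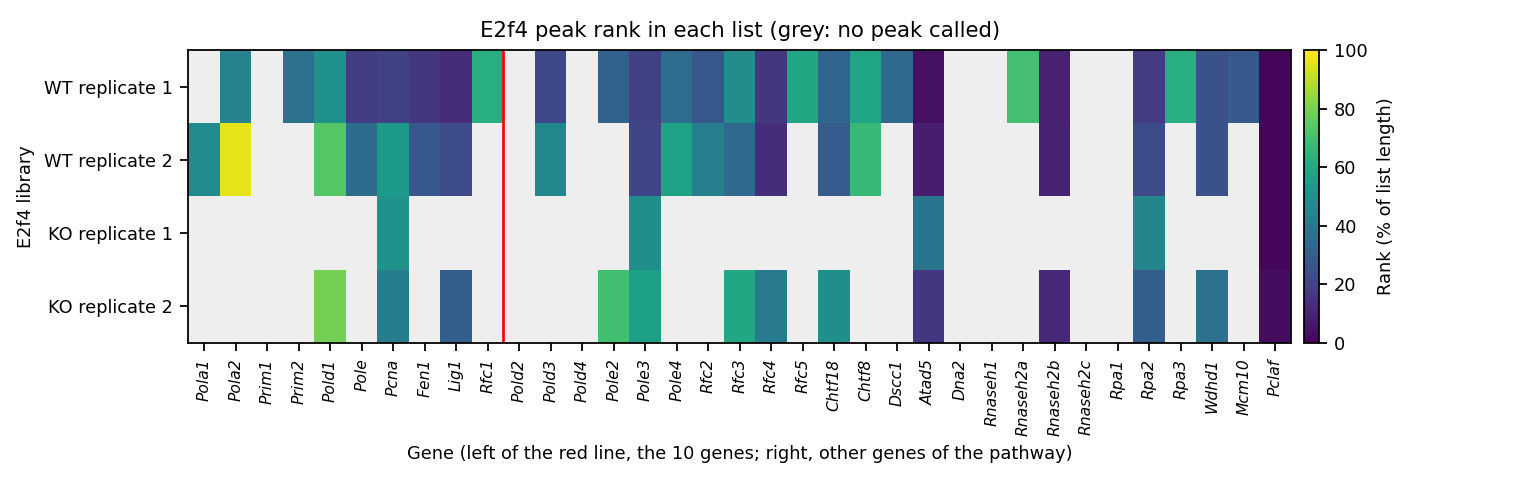
Rank of the E2f4 peak within each list as a percent of its length (colour, dark for the strongest, grey where none was called within 1000 bp of any RefSeq start) for the 10 genes left of the red line and 25 other genes of the pathway right of it. Rows are the 4 E2f4 libraries; Pcna, Pole3, Atad5, Rpa2 and Pclaf have a colour in every row.

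For the marks, H3K4me2 was at least 25% longer in KO at 4 of the 25 genes and shorter at 4, against 24.3% and 12% of all marked genes. H3K27ac was longer at 7 and shorter at 6, against 25.8% and 23.1%. The median differences of the 25 genes were 55 bp for H3K4me2 and 12 bp for H3K27ac, against 127 and 38 bp over all marked genes. In 3 neighbouring groups of S phase genes, summits of both WT libraries were called at the outer starts of 5 of 6 MCM helicase genes, 3 of 9 origin licensing genes and 2 of 8 nucleotide supply genes, and at least 1 KO library was called at 4, 3 and 2 of them. Over all genes the shares were 3.72% for both WT libraries and 3.17% for at least 1 KO library. Whether these counts differ from those of the 10 genes was not tested.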

How the data were processed

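ChIP-seq of E2f4, H3K4me2 and H3K27ac in 8 libraries was used; the 8 input samples were not used here. Per the submitters' processing notes the build was mm10 and the tools were MACS2 2.0.10.20131216, Bowtie2 2.2.3, HOMER and Picard, without roles. The authors deposited 1 list for each library. Each deposited peak has a fold enrichment over background (a ratio), a −log10 p-value and −log10 q-value, a score that is 10 times the −log10 q-value (not used) and, for E2f4, a summit offset. The use made of inputs in calling is not given in any source used here.

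The start of a gene was its outer end in RefSeq (GRCm38.p6) that is 5′ by the strand of the RefSeq promoter table (17492 genes), and otherwise the end with more H3K4me2 within 2000 bp (4395 genes, Prim2 and Pole among them; both ends for 1157). Exons and introns were not analysed here. Ranks are by −log10 q-value. A mark counted as longer or shorter by at least 25% of the shorter length. Over E2f4 libraries the exact permutation test was used, and none over the genes of a list. The members and lists were chosen with earlier results of these data known. All members are named, with other pathway genes called in any library, neighbours, and the 2 genes with ranks most like each member called in all 4 libraries; pathway genes without a call, and the windows of Lig1 and Prim1, were named after their values were seen. The functions (Python 3.11.15, numpy 2.4.6, pandas 2.3.3) were tested on simulated data. Alternatives were other windows, gene ends, minimum −log10 q-values, folds, lists of equal length and each E2f4 library left out. An item of a marker list is not reported here.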

Additional observations from a re-analysis of the deposited data

How the results depend on the processing

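The lists hold no counts, so depth limits every E2f4 count by an unknown amount, and 1 library per genotype limits every mark. The difference of -734 genes with a summit per library (KO minus WT) kept its sign under every alternative run. It ranged from -956.5 to -511.5 with 1 library left out, and from -850.5 with a window of 5000 bp to -34.5 with lists of equal length, where the exact permutation p was 1. In those lists KO replicate 2 (316 genes) stood above both WT libraries (314 and 313). Only KO replicate 1 (242 genes), whose 287 peaks were not cut, stood below them, so the sign there rests on that library. With the replicate number as a block, a sign-flip permutation test gave p = 0.5, the smallest possible with 2 pairs. The labels do not say what the numbers share, and same-numbered libraries had a correlation of deviations of 0.258 over 1615 genes. The number of members with E2f4 in both WT libraries, 5 of 10, was 3 with −log10 q-values limited to a minimum of 10, 0 in lists of equal length, 1 in lists of equal length from any RefSeq start, and 5 to 6 with 1 library left out, where it could not fall because fewer WT calls were then required. The number of those called in KO, 2, was 1 within 500 bp, 1 with −log10 q-values limited to a minimum of 10, 0 in lists of equal length, 1 in such lists from any RefSeq start, and 1 to 2 with 1 library left out.

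Members with longer H3K4me2 in KO (0) numbered 1 within 1000 bp, 1 over both gene ends and 2 past 1.1-fold. Those with shorter H3K4me2 (2) numbered 1 within 1000 bp, 1 within 10000 bp, 4 with −log10 q-values limited to a minimum of 5, 5 past 1.1-fold and 1 past 1.5-fold. Longer H3K27ac (5) numbered 3 within 1000 bp, 3 with −log10 q-values limited to a minimum of 5 and 3 past 1.5-fold. It numbered 6 over both gene ends and 6 past 1.1-fold. The 3 at a minimum of 5 were Lig1, Rfc1 and Pold1, and Pold1 was shorter in the main setting. Shorter H3K27ac (1) numbered 2 within 1000 bp, 0 within 10000 bp, 0 with −log10 q-values limited to a minimum of 5 and 2 past 1.1-fold. Of differences of at least 25%, the sign turned for Pold1 H3K27ac with −log10 q-values limited to a minimum of 5 (383 bp), where the WT region at the start drops out, and for Lig1 H3K27ac within 1000 bp (-58 bp), where only the outer edges of the regions are counted. Smaller differences turned for Fen1 H3K27ac (-368 to 1417 bp, within 10000 bp or over both gene ends), Pcna H3K27ac (122 bp to between -487 and -36 bp), Rfc1 H3K4me2 (172 bp to between -500 and -81 bp), Pola1 H3K4me2 (-101 to 53 and 749 bp), Pold1 H3K4me2 (-218 to 4 bp) and Lig1 H3K4me2 (-255 to 13 bp). The cause of the other shifts was not tested. RefSeq starts were added after the data were seen.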
